A study of Mus musculus and Homo sapiens with 30 samples.

Results

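Multidrug resistance ABC transporters are followed here through 3 cell lines given the secretome of lean or obese adipocytes. They are 9 mouse genes (Abcc1, Abcc2, Abcc3, Abcc4, Abcc5, Abcc10, Abcb1a, Abcb1b and Abcg2) of 56980 IDs in the mouse table, measured in E0771 and NMuMG cells, and 3 human genes of 61552 IDs in the human table, measured in SkBr3 cells: ABCC1 (ENSG00000103222), ABCC2 (ENSG00000023839) and ABCC3 (ENSG00000108846). All 9 mouse symbols and all 3 human IDs were found. The list was chosen by function and with the measured responses to lean secretome (lean against control and against obese secretome) in view, with no threshold. Values from contrasts with lean secretome are therefore given for these genes as a description with no test, while obese secretome against control and the untreated lines are tested. Those tests share their libraries with the contrasts in view, so they are not independent of the choice of genes.

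The series comprises 30 libraries of poly(A) RNA. SkBr3 is an established human breast cancer line, E0771 a mouse mammary carcinoma line and NMuMG a mouse mammary gland epithelial line, which the labels, like the others, call breast cancer. Cells grew for 36 h and then received control medium or a mixture that was 50% secretome of inguinal adipocytes, lean or obese, for 16 h. Each medium had 4 libraries in SkBr3, 3 in E0771 and 3 in NMuMG. All media held DMEM with serum, and that of NMuMG also held insulin and glucose in all its groups. The control was standard growth medium with no secretome. The species and number of adipocyte donors, and whether replicates came from separate cultures or secretome batches, are not given in the sources used here, so p-values measure only the spread between these libraries, which may be technical.

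Totals ran from 18479433 to 29195499 counts in SkBr3, 22929035 to 31094119 in E0771 and 23966897 to 29686456 in NMuMG. Epithelial markers were high in untreated NMuMG (Krt8 mean 3446 CPM and Cdh1 542 CPM), with CPM the count scaled to the library total, and Cldn7 was at 0. In untreated E0771 only Krt8 of the 7 markers was clearly present (254 CPM). Krt18, Krt19, Cldn4 and Cldn7 were at 0 there, and Cdh1 and Epcam near 0. The mesenchymal genes Vim (3026 CPM) and Col1a1 (684 CPM) were high in untreated E0771. Of the 6 mesenchymal markers examined, 3 passed the filter on low counts in each mouse line. Summed over all 6, the level was 3764 to 3905 CPM in untreated E0771 and 1743 to 1842 CPM in untreated NMuMG. The summed level of 8 adipocyte markers was 0.751 to 1.61 CPM over all E0771 libraries. In NMuMG it was 0.393 to 0.843 CPM in control medium, 0.372 to 1.08 CPM in obese secretome and 2.03 to 2.19 CPM in lean secretome. Lep was at 0 in untreated cells of both lines. The part of other cells' RNA in the results was not tested.

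ATP-binding cassette (ABC) transporters of this group sit in the plasma membrane and use ATP to move drugs, lipids, hormones and their conjugates out of the cell. The Abcc proteins, called multidrug resistance-associated proteins, export mainly organic anions, including compounds that detoxifying enzymes have joined to glutathione, glucuronic acid or sulfate, whereas Abcb1 (P-glycoprotein) and Abcg2 (breast cancer resistance protein) export many compounds unmodified. Their joint activity limits how much of a chemotherapeutic agent a tumour cell retains, and several of the genes are known targets of NRF2, a transcription factor that binds antioxidant response elements in DNA under oxidative stress.

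The short stretches below carry the core of that element and are shown because it is a known control element of Abcc genes. The RefSeq promoter table (GRCm38.p6) held windows of 300 bases, 250 before and 50 after an annotated start, for 7 of the 9 mouse genes, in 11 windows. The core TGACNNNGC was searched on both strands. It occurred in 6 of the 11 windows, of 4 genes, against 4071 of all 32851 windows of the same length (12.4%). Capitals mark the match, and each stretch reads 5′ to 3′ along the gene, so that a match on the opposite strand appears as GCNNNGTCA.
Abcc2: cactgggaTGACATAGCattcatct
Abcc4, start within the gene: taatctcgTGACTCTGCcgtggtgg
Abcc4, outermost start: cccgagagGCGGGGTCAgggcgggc
Abcc10, upstream start: cagcacccTGACCTGGCagcgcgtc
Abcc10, downstream start: gagctttcTGACATGGCtgctagga
Abcb1a: ctttgtccGCGGAGTCAgacagaac

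The Abcc2 match begins 98 bases before the start in chr19:43782058-43782357 on the plus strand. The Abcc4 matches begin 23 bases before the start in chr14:118676882-118677181 and 25 bases before it in chr14:118706170-118706469, both on the minus strand of the chromosome. Those of Abcc10 lie 203 bases before one start (chr17:46327974-46328273, minus strand) and 11 bases after another (chr17:46325717-46326016, minus strand). The Abcb1a match lies 26 bases after the start (chr5:8566841-8567140, plus strand). The windows of Abcc5, Abcb1b and Abcg2 did not hold these letters. Because Abcc4 was among the genes highest in lean secretome in both mouse lines, the 250 bases before its outermost start (chr14:118706220-118706469, minus strand) are given with the same match in capitals.
Abcc4 promoter: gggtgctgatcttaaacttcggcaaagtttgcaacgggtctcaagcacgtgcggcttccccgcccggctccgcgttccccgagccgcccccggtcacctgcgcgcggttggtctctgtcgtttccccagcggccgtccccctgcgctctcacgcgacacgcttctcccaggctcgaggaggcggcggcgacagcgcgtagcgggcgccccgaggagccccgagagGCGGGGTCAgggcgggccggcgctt

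A match is only a description of these letters, and no binding was measured.

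Before any secretome was added, the 2 mouse lines carried different sets of these transporters. E0771 cells had almost no Abcc2 or Abcb1a transcript and little Abcc3, whereas in NMuMG cells all 9 genes passed the filter on low counts and Abcc2 was the lowest. Levels can be compared between genes only per length, and RPKM, the CPM per kilobase of exon, is used for that. The length is that of all annotated exons of a gene together, which can exceed that of the transcript made. Orders of genes per length therefore depend on this choice. Abcc1 is set at 15092 bases and Abcc4 at 6389 bases, and in untreated E0771 Abcc1 had the higher CPM (172 against 99.4). In untreated E0771 the order was led by Abcc4, an exporter of cyclic nucleotides and prostaglandins (15.6 ± 0.0823 RPKM, SD, n = 3), followed by Abcc1, the exporter of glutathione conjugates and leukotriene C4 (11.4 ± 0.262 RPKM). Abcg2 (5.40 ± 0.379 RPKM), Abcb1b (5.37 ± 0.134 RPKM) and Abcc5, an exporter of nucleotide analogues (5.06 ± 0.355 RPKM), came next, and the libraries of these neighbours overlapped. Abcc10, which carries taxanes, reached 1.37 ± 0.205 RPKM, Abcc3 0.323 ± 0.0684 RPKM, and Abcb1a and Abcc2 stood last.

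Untreated NMuMG cells were also led by Abcc4 (32.9 ± 0.849 RPKM, SD, n = 3). Abcc5 came second there (25.8 ± 0.706 RPKM) and Abcc3, a basolateral exporter of glucuronides, after it (12.4 ± 0.298 RPKM), ahead of Abcc1 (10.1 ± 0.104 RPKM). Abcg2 followed at 6.03 ± 0.181 RPKM, Abcb1a at 4.24 ± 0.144 RPKM, Abcb1b at 3.76 ± 0.136 RPKM and Abcc10 at 1.77 ± 0.0932 RPKM. Abcc2, the apical exporter of conjugates best known from bile, was lowest at 0.364 ± 0.0744 RPKM. No neighbours in this order overlapped in their libraries. The order of Abcb1a and Abcb1b depends on the exon lengths used (5480 and 7990 bases), as Abcb1b had the higher CPM (30.0 against 23.3).

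Tested between the untreated lines in a joint fit of the 18 mouse libraries, 8 of the 9 genes differed at an edgeR adjusted p under 0.05, beside 80.5% of all genes tested. Abcc2 and Abcb1a entered that fit only through NMuMG, where they are higher, and so had to differ. Of the 7 genes that passed the filter in both lines 6 differed, beside 78.8% of the 12433 such genes, so the count does not set them apart. Abcc3 read 2.12, 2.01 and 1.40 CPM in the control libraries of E0771 and 69.5, 70.1 and 72.7 CPM in those of NMuMG, a log2 difference of -5.35 ± 0.0987 (SE, edgeR adjusted p = 6.12e-36). Abcc5 was lower in E0771 by a log2 difference of -2.46 ± 0.0552 (edgeR adjusted p = 1.31e-26) and Abcc4 by -1.19 ± 0.119 (edgeR adjusted p = 5.58e-07). Abcc10 and Abcg2 differed less, at -0.48 ± 0.105 and -0.27 ± 0.0572. Abcb1b was the gene that was higher in E0771, by 0.40 ± 0.0571 (edgeR adjusted p = 3.42e-08). Abcc1 did not pass: its log2 difference was 0.06 with a 95% interval from -0.22 to 0.34 (edgeR adjusted p = 0.677).

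The near absence of Abcc2 and Abcb1a from E0771 rests on very few reads. The 3 untreated E0771 libraries held 2 Abcc2 counts in 77154065, against 259 in 83773182 in NMuMG, a ratio of 119 (exact 95% interval 32.7 to 990). For Abcb1a the counts were 9 and 1948, a ratio of 199 (105 to 437). Intervals here cover counting error only. Both genes stayed at this level in E0771 in every medium: Abcc2 had 6 counts over the lean libraries and 2 over the obese libraries, and Abcb1a had 13 and 3. They failed the filter on low counts in E0771 and have no fold change there. The cell line and its growth medium cannot be told apart in these comparisons.

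**Figure D1:**
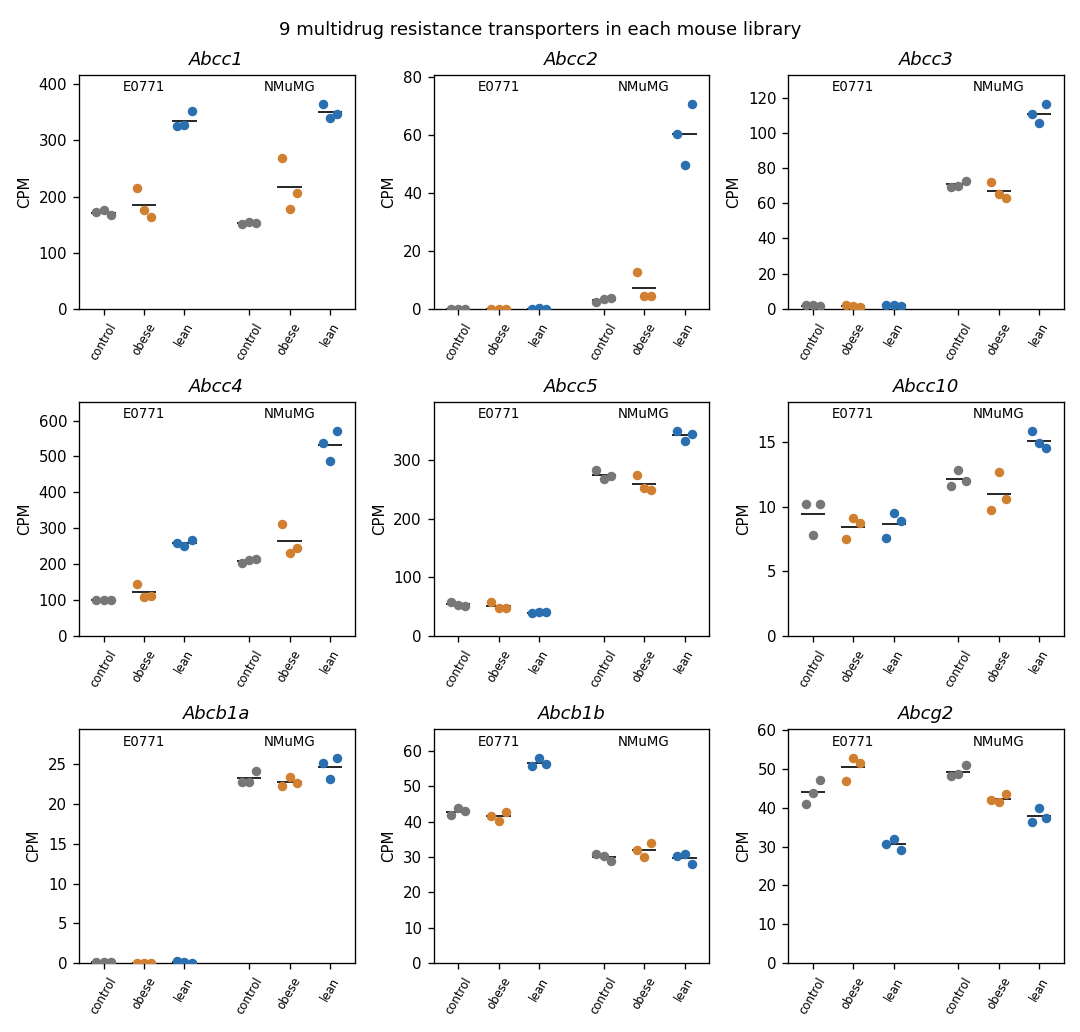
CPM (counts scaled to the library total, linear axes from 0) of the 9 mouse transporters in each library of E0771 (left in each panel) and NMuMG (right) in control medium, obese secretome and lean secretome; points are libraries and bars their means. Abcc1 and Abcc4 stand highest in the lean libraries of both lines, Abcc2 and Abcb1a are near 0 in E0771, and Abcg2 is lowest in the lean libraries.

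Lean secretome went with higher Abcc1 and Abcc4 and lower Abcg2 in both mouse lines, and with higher Abcc2 in NMuMG, while E0771 held almost none of that transcript. In such bulk samples, fewer cells of a type and less RNA per cell cannot be told apart. Of the 7 genes tested in E0771, 5 passed the threshold against control, beside 56.3% of all genes. They were 3 higher and 2 lower, beside 27.3% and 29% of all genes, and 5 passed against obese secretome, beside 52.7%. Of the 9 in NMuMG, 7 passed against control, beside 38.2% of all genes. They were 6 higher and 1 lower, beside 19.1% and 19.1% of all genes, and 7 passed against obese secretome, beside 35%. These contrasts were in view when the list was made, so nothing is read from the counts. The same holds for the difference between the lines, which passed for 4 of 9 genes in lean against control and 5 of 9 in lean against obese, beside 34.5% and 34.2% of all genes. All of these were among the 7 genes that passed the filter in both lines, where the shares over genes are 43.9% and 43.7%. The median log2 difference from control of the genes tested was 0.09 in E0771 and 0.32 in NMuMG, against -0.0134 and -0.00464 over all genes. Libraries of lean and control medium did not overlap for the same number of genes in each line, 5 and 7, beside 61.4% and 47.8% of all genes. Cell type markers moved in the same comparisons. In E0771 the 3 mesenchymal markers tested fell, and the sum of all 6 was 3764 to 3905 CPM in control and 2186 to 2436 CPM in lean libraries. In NMuMG 3 of 6 epithelial markers tested rose, and the sum of all 7 was 7106 to 7522 CPM in control and 7802 to 8081 CPM in lean libraries. Also in NMuMG, 1 of 3 mesenchymal markers tested fell (Col1a1, -0.91), and the 1 adipocyte marker tested, the lipid droplet gene Cidec, rose (1.87), to 2.02 CPM. Their part in the transporter values was not tested.

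Abcc4 moved alike in the 2 lines. In E0771 it read 99.5, 98.9 and 99.9 CPM in control medium, 143, 109.8 and 111 CPM in obese secretome and 258, 251 and 267 CPM in lean secretome. In NMuMG the values were 204, 210.3 and 215 CPM, then 312, 231 and 246 CPM, then 537, 487 and 570.2 CPM. The 3 lean libraries lay above every other library in both lines. The log2 fold change of lean over control was 1.37 ± 0.0938 (SE, 2.58-fold) in E0771 and 1.34 ± 0.124 (2.54-fold) in NMuMG, and the difference between these was 0.05 ± 0.162.

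Abcc1 followed the same order of media. It read 172, 175 and 167 CPM in control E0771, 216, 175 and 164 CPM in obese secretome and 325, 328 and 352 CPM in lean secretome. NMuMG gave 151, 154 and 153 CPM, then 269, 178 and 206 CPM, then 365, 339.6 and 347 CPM. Lean libraries stood apart from the rest in both lines, and obese libraries overlapped control in E0771 only. Lean over control was 0.95 ± 0.0925 on the log2 scale (1.94-fold) in E0771 and 1.20 ± 0.147 (2.30-fold) in NMuMG.

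Abcc2 had the widest span of the mouse genes. NMuMG libraries read 2.43, 3.22 and 3.68 CPM in control medium, 12.7, 4.34 and 4.38 CPM in obese secretome and 60.2, 49.6 and 70.6 CPM in lean secretome. The lowest lean library stood well above the highest obese library, and 1 obese library stood above the others. Lean over control was 4.28 ± 0.416 on the log2 scale, or 19.4-fold, and lean over obese 3.08 ± 0.370, or 8.43-fold. Per length Abcc2 went from last of the 9 genes in untreated NMuMG to the fifth in lean secretome (7.05 ± 1.23 RPKM, SD, n = 3), above Abcg2, both Abcb1 genes and Abcc10.

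Abcc3 and Abcc10 were higher in lean secretome in NMuMG, and Abcc3 had few counts in E0771. Abcc3 read 69.5, 70.1 and 72.7 CPM in control medium, 72.4, 65.4 and 62.7 CPM in obese secretome and 111, 106 and 116 CPM in lean secretome of NMuMG, 0.65 ± 0.0464 on the log2 scale above control. In E0771, at 1.24 to 2.20 CPM in all media, the libraries overlapped (0.09 ± 0.227). Abcc10 was 12.2 ± 0.639 CPM (SD, n = 3) in control medium, 11.0 ± 1.50 CPM in obese secretome and 15.1 ± 0.650 CPM in lean secretome of NMuMG. Its E0771 libraries, at levels not far below those, lay between 7.54 and 10.3 CPM in every medium and overlapped. Lean over control was -0.13 ± 0.117 there on the log2 scale.

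Abcc5 went opposite ways in the 2 lines. In E0771 it read 58.1, 53.6 and 50.5 CPM in control medium, 57.3, 47.8 and 47.7 CPM in obese secretome and 38.7, 40.2 and 40.3 CPM in lean secretome. In NMuMG the values were 284, 269 and 273 CPM, then 276, 253 and 250.1 CPM, then 349.7, 333 and 345 CPM. All lean libraries were below the others in E0771 and above the others in NMuMG. The log2 fold changes of lean over control were -0.46 ± 0.0674 and 0.32 ± 0.0368, and the difference, E0771 minus NMuMG, was -0.75 ± 0.0773.

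Abcg2, an exporter that the mammary gland uses to secrete compounds into milk, was lower in lean secretome in both lines. E0771 read 41.1, 43.8 and 47.2 CPM in control medium, 46.9, 52.7 and 51.6 CPM in obese secretome and 30.6, 32.0 and 29.2 CPM in lean secretome. NMuMG read 48.1, 48.5 and 50.9 CPM, then 41.9, 41.4 and 43.4 CPM, then 36.4, 39.9 and 37.3 CPM. The 3 lean libraries were the lowest in each line, while the obese libraries lay towards the top in E0771 and between control and lean in NMuMG. Lean over control was -0.54 ± 0.0639 on the log2 scale in E0771 and -0.37 ± 0.0506 in NMuMG.

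The pair of genes that encode mouse P-glycoprotein behaved differently in the 2 lines. Abcb1b read 41.8, 43.9 and 43.0 CPM in control E0771, 41.6, 40.2 and 42.8 CPM in obese secretome and 55.9, 57.9 and 56.2 CPM in lean secretome, with no overlap of lean with the others (0.39 ± 0.0517 over control on the log2 scale). In NMuMG it lay between 28.0 and 34.0 CPM in all media, and lean over control was -0.01 ± 0.0601. Abcb1a lay between 22.3 and 25.7 CPM in all NMuMG libraries (0.09 ± 0.0625). The ratio of Abcb1b to Abcb1a per length was 0.745 to 1.03 over the 9 NMuMG libraries. That ratio rests on exon lengths of 7990 bases for Abcb1b and 5480 bases for Abcb1a. Among their longest coding transcripts that of Abcb1b is the shorter, so the ratio would be higher on those lengths. The longest coding transcripts of the pair, 4997 and 4306 bases, share 214 stretches of 150 bases, which is 4.41% of those in Abcb1a and 5.15% of those in Abcb1b. A read within those stretches cannot by itself be assigned to 1 of the genes, though the other read of its pair may place it. How such reads were counted is not given in the sources used here.

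**Figure D2:**
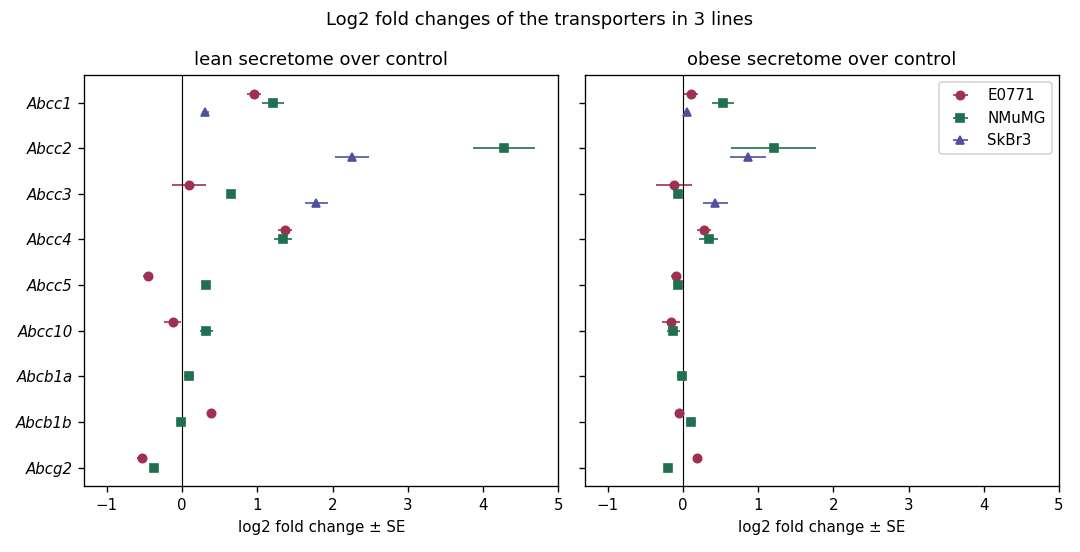
Log2 fold change over control (horizontal axis, ± SE from the edgeR fit) of each transporter in lean secretome (left) and obese secretome (right) for E0771, NMuMG and SkBr3, with human genes on the row of the mouse gene of the same name. In lean secretome Abcc2 reaches 4.28 in NMuMG and 2.26 in SkBr3 and Abcc5 lies on opposite sides of 0 in the 2 mouse lines, while in obese secretome the values run from -0.20 to 1.21.

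Per length, the sum over the 9 genes was higher in lean secretome, and Abcc4 made up more of it. In E0771 it rose mainly with Abcc4 (15.6 to 40.5 RPKM from control to lean) and Abcc1 (11.4 to 22.2 RPKM). The sums and shares depend on the exon lengths used, 6389 bases for Abcc4 and 15092 bases for Abcc1. In mean CPM, Abcc4 went from 99.4 to 259 and Abcc1 from 172 to 335 between control and lean E0771. Abcg2 and Abcc5 were lower there. The summed RPKM of the 9 genes was 44.5 ± 0.0812 (SD, n = 3) in control E0771, 49.0 ± 4.85 in obese secretome and 78.9 ± 1.95 in lean secretome. In NMuMG the sums were 97.3 ± 1.10, 107 ± 12.1 and 180.1 ± 9.64. The share held by Abcc4 was 35.0%, 38.7% and 51.3% in E0771 and 33.8%, 38.2% and 46.1% in NMuMG, in the order control, obese and lean. Abcc5 took the opposite course as a share, from 11.4% to 4.71% in E0771 and from 26.5% to 17.8% in NMuMG between control and lean, although its own level was higher in lean NMuMG. Abcg2 went from 12.1% to 4.76% and from 6.20% to 2.59%. Abcc2 went from 0.374% to 3.90% of the sum in NMuMG. The 2 most abundant genes in lean E0771, Abcc4 and Abcc1, were the same 2 as in control, whereas in lean NMuMG Abcc1 (23.2 ± 0.867 RPKM) stood above Abcc3 (19.5 ± 0.928 RPKM), the reverse of control.

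**Figure D3:**
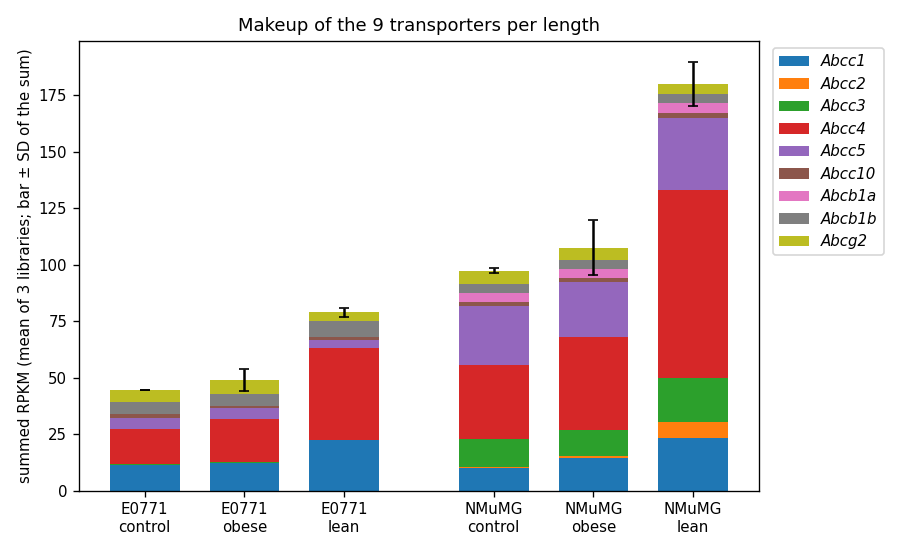
Summed RPKM (mean of 3 libraries, linear axis from 0, error bars ± SD of the sum) of the 9 mouse transporters by line and medium, with each gene's part in colour. The lean bars reach 78.9 in E0771 and 180.1 in NMuMG, and Abcc4 makes up 51.3% and 46.1% of them. Heights and parts depend on the exon lengths used.

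In SkBr3 cells the 3 human transporters all stood higher in lean secretome. ABCC2 read 12.0, 11.6, 10.6 and 13.1 CPM in control medium, 28.7, 14.1, 15.7 and 27.9 CPM in obese secretome and 59.2, 62.2, 50.5 and 60.6 CPM in lean secretome. ABCC3 read 4.63, 4.56, 4.55 and 4.73 CPM, then 8.78, 4.70, 4.77 and 6.88 CPM, then 17.4, 16.5, 13.6 and 17.8 CPM. The 4 lean libraries lay above all others for both genes, and obese libraries 1 and 4 lay above obese libraries 2 and 3. Lean over control was 2.26 ± 0.227 on the log2 scale (4.79-fold) for ABCC2 and 1.79 ± 0.155 (3.45-fold) for ABCC3. ABCC1 differed less, from 117 ± 6.19 CPM (SD, n = 4) in control medium and 122 ± 7.31 CPM in obese secretome to 149 ± 6.94 CPM in lean secretome (0.31 ± 0.0467 over control on the log2 scale). All 3 passed the threshold against control, beside 48.8% of all genes in either direction and 23.7% higher, and against obese secretome, beside 44.1% and 21.1%. Transcript lengths were not used for SkBr3, so the levels of these genes are not ranked.

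**Figure D4:**
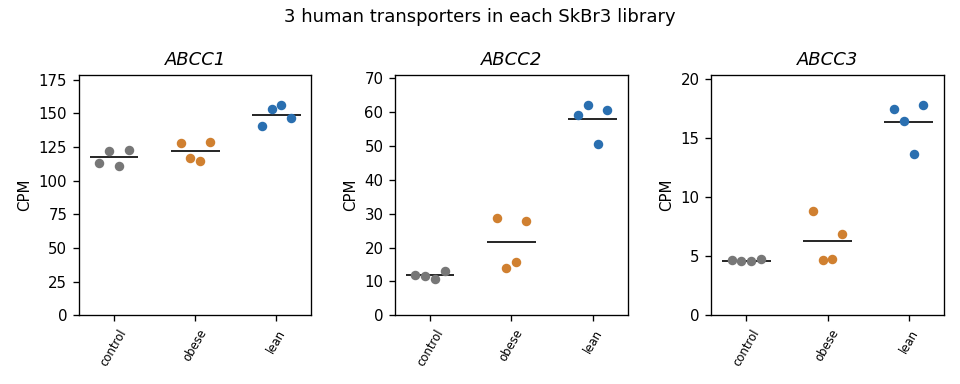
CPM (linear axes from 0) of ABCC1, ABCC2 and ABCC3 in each SkBr3 library in control medium, obese secretome and lean secretome; points are libraries and bars their means. The 4 lean libraries are above all others in each panel, and 2 of the obese libraries of ABCC2 (28.7 and 27.9 CPM) stand apart from the other two.

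Obese secretome against control gave 1 call among these genes. This comparison is the difference of the contrasts that were in view when the genes were chosen and uses the same libraries, so its p-values are not independent of that choice. Abcg2 fell in NMuMG: every obese library (41.4 to 43.4 CPM) was below every control library (48.1 to 50.9 CPM), with a log2 fold change of -0.20 ± 0.0505 (SE, edgeR adjusted p = 0.0121). It was 1 of 9 genes tested, beside 5.01% of all genes, with 3 of 9 at an unadjusted p under 0.05. Without control replicate 3 the adjusted p was 0.0816 (log2 fold change -0.18). In the same comparison the epithelial markers Cdh1 (-0.17) and Krt19 (-0.14) fell, 2 of 6 tested, and Vim rose (0.11), and their part in the Abcg2 value was not tested. In E0771 Abcg2 was 0.19 ± 0.0620 above control in obese secretome with overlapping libraries (edgeR adjusted p = 0.108). The difference between the lines, E0771 minus NMuMG, was 0.40 ± 0.0812 and passed (edgeR adjusted p = 0.00401), the 1 call of 9, beside 1.69% of all genes tested in that comparison (2.2% of those that passed the filter in both lines).

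The Abcc genes that were high in lean secretome did not pass in obese secretome in the main edgeR fit. DESeq2 did call Abcc1 in NMuMG (log2 fold change 0.53, DESeq2 adjusted p = 0.0124). In NMuMG the log2 fold change over control was 0.53 ± 0.148 for Abcc1 (edgeR adjusted p = 0.125), 1.21 ± 0.563 for Abcc2 (adjusted p = 0.368) and 0.34 ± 0.124 for Abcc4 (adjusted p = 0.235), although the obese and control libraries of these genes did not overlap. With Abcg2 that made 4 of 9 genes without overlap, beside 21.2% of all genes. In E0771 0 of 7 genes passed in edgeR, beside 2.61% of all genes, with 2 of 7 at an unadjusted p under 0.05 and 0 in DESeq2. Abcc4 there was 0.28 ± 0.0950 above control (edgeR adjusted p = 0.197), the 1 gene of 7 without overlap, beside 21.2% of all genes, and Abcc1 0.10 ± 0.0932 with a 95% interval from -0.11 to 0.32. With no filter on low counts 2 passed in E0771, Abcc4 (0.29, adjusted p = 1.22e-06) and Abcg2 (0.20, adjusted p = 0.0486).

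In SkBr3 0 of 3 genes passed in edgeR for obese secretome against control, beside 1.16% of all genes, with 2 of 3 at an unadjusted p under 0.05. ABCC2 was 0.86 ± 0.240 above control on the log2 scale (edgeR adjusted p = 0.143), ABCC3 0.43 ± 0.170 (adjusted p = 0.25) and ABCC1 0.05 ± 0.0469 (adjusted p = 0.705). DESeq2 gave 1 call of 3, ABCC2 (adjusted p = 0.0113). With no filter on low counts the 1 call was ABCC3 instead (0.44, edgeR adjusted p = 0.0136). ABCC2 was the 1 gene of 3 whose obese libraries were all above control, beside 11% of all genes without overlap.

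The obese libraries were not alike, which bears on each of those values. Replicate 1 was the highest obese library for Abcc1, Abcc2, Abcc3, Abcc4 and Abcc5 in both mouse lines, though Abcc2 in E0771 rests on single counts. Relative to the control mean, Abcc2 in NMuMG was 4.08 in obese replicate 1 and 1.40 and 1.41 in the others. For Abcc1 in NMuMG the ratios were 1.76, 1.17 and 1.35, and for Abcc4 in E0771 they were 1.44, 1.10 and 1.12. In SkBr3 replicates 1 and 4 stood apart, with ABCC2 at 2.43 and 2.36 times the control mean against 1.19 and 1.33 in replicates 2 and 3. For Abcc10 obese replicate 1 was the lowest and replicate 2 the highest in both mouse lines. Replicate 1 was the highest for neither Abcg2 nor the Abcb1 genes, and the lowest for Abcg2 in E0771 and Abcb1a in NMuMG.

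A set of 5 genes used as a reference for NRF2 activity (Nqo1, Hmox1, Srxn1, Txnrd1 and Osgin1) had the same order among the obese libraries of both mouse lines. Its summed level was 1082, 633 and 706 CPM in obese E0771 replicates 1 to 3, against 543 to 578 CPM in control and 2781 to 3816 CPM in lean secretome. In NMuMG it was 813, 619 and 665 CPM in obese secretome, 576 to 588 CPM in control and 1108 to 1206 CPM in lean secretome. Its part in the transporter values was not tested.

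Without obese replicate 1 the NMuMG difference of obese from control was smaller but passed for Abcc1 (0.35, edgeR adjusted p = 1.07e-05) and Abcc4 (0.20, adjusted p = 0.0273), and with Abcg2 made 3 calls. Abcc2 then stood at 0.51 (adjusted p = 0.606). In E0771 without that replicate Abcc1 was -0.02 and Abcc4 0.14 from control (adjusted p = 0.901 and 0.134). The distance of lean from obese secretome was then larger, at 3.78 against 3.08 for Abcc2 in NMuMG, 1.15 against 1.00 for Abcc4 in NMuMG and 1.22 against 1.09 for Abcc4 in E0771. In SkBr3 ABCC2 in obese secretome was 0.71 above control without replicate 1 and 0.70 without replicate 4.

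**Figure D5:**
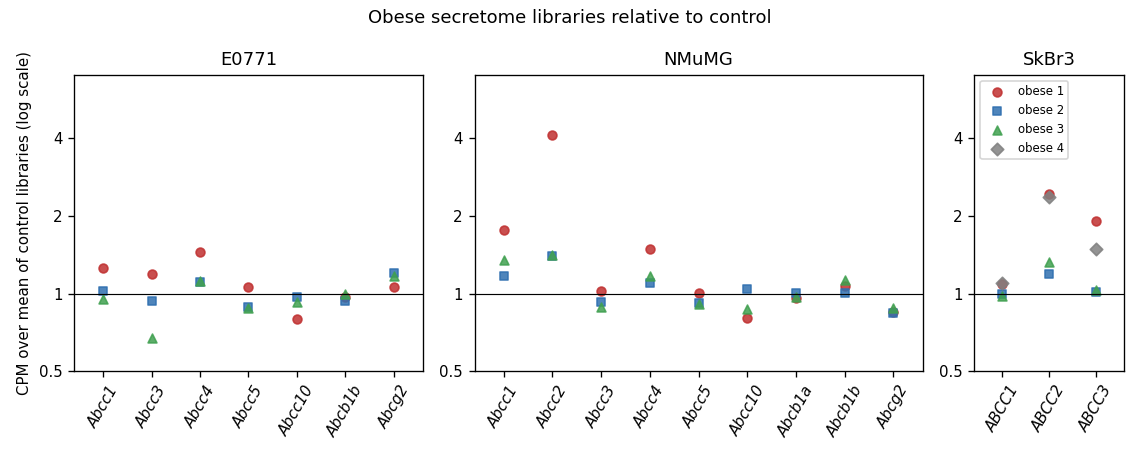
CPM of each obese secretome library divided by the mean CPM of the control libraries of the same line (log axis, line at 1) for the transporters with enough counts, with replicates 1 to 4 by colour and shape. Replicate 1 is the highest for Abcc1, Abcc3, Abcc4 and Abcc5 in both mouse lines and for Abcc2 in NMuMG (4.08), and replicates 1 and 4 are the highest for ABCC2 and ABCC3 in SkBr3.

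The genes most like each transporter across the 9 libraries of a line were ranked by Pearson's r of log2 CPM, for the 4 cases whose group means spanned at least 1 log2 unit. Libraries of 3 media and obese replicate 1 give these points much of their spread, so r is a description. Abcc4 in E0771 was closest to Srxn1, Cdkn1a and Gbe1 (r = 0.998 for each) among 9985 genes. Abcc4 in NMuMG was closest to Gsto1 (0.998), Alas1 and Ugdh (0.997 each) among 10731 genes. Abcc1 in NMuMG was closest to Slc7a11 (0.998), Txnrd1 (0.997) and Gsta1 (0.996), and Abcc2 in NMuMG to Gstp1, Gramd3 and Alas1 (0.997 each).

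The other lists are read beside the share of all genes called in lean secretome against control, 27.3% higher and 29% lower in E0771 and 19.1% in each direction in NMuMG. Of 39 other ABC genes 21 were tested in E0771, where 8 rose and 11 fell against control, and 27 in NMuMG, where 9 rose and 3 fell. Their median log2 fold change was -0.33 in E0771 and 0.09 in NMuMG. In E0771 Abcb8, a mitochondrial transporter, fell by 1.23 on the log2 scale, and Abca2 and Abca9 fell by 0.97 each, while Abca8b rose by 0.68, Abcf2 by 0.48 and Abcd3, a peroxisomal importer of fatty acids, by 0.39. In NMuMG Abcb4, a phospholipid floppase related to the Abcb1 genes, rose by 1.33, Abca4 by 1.12 and Abcb6 by 0.65, and Abca5 fell by 0.22. All of these had an edgeR adjusted p of 0.00178 or less.

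The enzymes that make the conjugates carried by Abcc proteins were examined next. Of 38 such genes, 22 of the 33 tested in NMuMG rose and 1 fell against control, with a median log2 fold change of 0.87. The glutathione S-transferases Gsta2, Gsta1 and Gsta3 rose the most, by 6.29, 5.92 and 4.79, and the sulfotransferase Sult1c2 fell by 1.14. In E0771, 8 of 18 rose and 4 fell (median 0.23), with Gstp2, Gstp1 and Gstm1 up by 0.92, 0.88 and 0.86 and Gstt1 down, at -1.13. Gstp1 and Gstp2, like the Gsta genes, are near-identical copies whose counts may be split by the counting. Among 8 genes of glutathione supply 6 of 8 rose in E0771 and 6 of 7 in NMuMG. They included Gclm (1.71) and Gclc (1.02) in E0771 and Slc7a11 (3.35) and Gclc (1.36) in NMuMG, which encode the subunits of the enzyme that limits glutathione synthesis and the cystine importer. All 5 NRF2 reference genes rose in both lines, led by Hmox1 in E0771 (4.23) and Nqo1 in NMuMG (3.07).

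Of 16 genes known to regulate these transporters, 4 of the 10 tested rose and 4 fell in E0771. In NMuMG 2 of 13 rose and 3 fell, shares near those of all genes. Ppard, a fatty acid receptor, rose in both lines (0.91 and 0.49), Bach1, a repressor of antioxidant genes, rose in E0771 (0.61), and the transcript of NRF2 itself, Nfe2l2, fell in NMuMG by 0.15. Nr1h3, an oxysterol receptor, fell in E0771 by 0.54 and rose in NMuMG by 0.34. Of 23 solute carriers of drugs and organic anions, 5 of 11 rose and 3 fell in E0771, where Slco2b1 fell by 2.08. In NMuMG 5 of 12 rose and 2 fell, and Slc22a18 rose by 1.18. Of the scaffold genes that anchor transporters at the membrane, 2 of 5 rose in E0771, and 2 of 5 rose and 2 fell in NMuMG, with Slc9a3r2 lowest at -0.19.

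In obese secretome few genes of these lists passed, and those are named here after their values were seen. In E0771 they were Gsta4 (0.40), Mgst1 (0.39), Gstm2 (0.37) and Slc22a4 (0.27), which rose, and Abcd4 (-0.27) and Abca2 (-0.18), which fell. In NMuMG Gsto2 (0.99), Ppard (0.27) and Msn (0.11) rose, and Sult1c2 (-0.53), Abca3 (-0.18), Abca2 (-0.16), Slc9a3r2 (-0.15) and Osgin1 (-0.14) fell. Among the other ABC genes that is 2 of 27 tested in NMuMG and 2 of 21 in E0771, beside 5.01% and 2.61% of all genes called in either direction.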

How the data were processed

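The authors deposited raw counts per Ensembl gene ID, 1 table for SkBr3 and 1 for both mouse lines, per the file headers. Libraries came from a directional poly(A) kit with paired 150-base reads, per the labels. Cutadapt 1.16, STAR 2.7.9a, featureCounts 1.6.3 and GRCm39 are named in the submitters' processing notes; the human build, the annotation release and the strand setting are not given in the sources used here. Without a known strand setting, reads of antisense genes cannot be told apart from those of the gene.

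The members and lists were chosen with earlier results of these data known. Libraries were grouped by line and medium as labelled. Each line was fitted with its 3 media in edgeR 4.0.16 (R 4.3.3): filterByExpr, TMM factors (0.987 to 1.02), a robust quasi-likelihood F test, Benjamini-Hochberg adjustment over all genes of a contrast, threshold 0.05. A joint fit of 18 mouse libraries in 6 groups tested differences between lines. SE is the absolute log2 fold change over the square root of F. CPM uses library totals. RPKM uses the length of all annotated exons of a gene, overlaps counted once, in GENCODE M21 on GRCm38. That is another build than the counts, and the length can exceed that of the transcript made, so lengths are approximate. Symbols came from the same annotation (52073 of 56980 IDs). All 9 mouse and 3 human genes are named; of other lists, up to 3 called genes with the largest rise and fall in lean secretome per line, with mean log2 CPM of at least 1, except 1 gene that is not reported here. Likeness took genes with mean log2 CPM of at least 2. On simulated counts, the edgeR fit recovered 70.8% to 81.0% of genes changed 1.5-fold and 86.2% to 92.9% of those changed 2-fold over the 3 comparisons of lean secretome with control (14694 genes in SkBr3, 13591 in E0771, 14765 in NMuMG), and 3.55% to 6.98% of its calls were false. That simulation changed 87 to 109 genes per fold and line, with a spread taken from the trend over genes. In the data 38.2% to 56.3% of genes were called in those comparisons, so the simulated rates need not hold for them. Alternatives were DESeq2 1.42.0, RLE size factors, no filter, only the groups compared, a replicate block, and leaving out each library.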

Additional observations from a re-analysis of the deposited data

Results flagged for a closer look

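The response of Abcg2 to obese secretome differed between the mouse lines by an interaction test: the E0771 minus NMuMG log2 difference was 0.40 ± 0.0812 (SE, edgeR adjusted p = 0.00401, 0.000192 to 0.0268 over 17 alternatives), from 0.19 in E0771 and -0.20 in NMuMG. The obese libraries of NMuMG were below control in 3 of 3, and those of E0771 overlapped control.

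Abcc5 moved in opposite directions in every library of the 2 lines. The E0771 minus NMuMG log2 difference was -0.73 for lean against obese secretome and -0.75 for lean against control. Both comparisons use the same lean libraries. No test is given for these differences, since the contrasts were in view when the genes were chosen.

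In SkBr3, where groups had 4 libraries, the 9 groups of transporter values held no library with a gap wide enough to set it apart. The rule looks for 1 library apart from all others. It cannot flag a split into pairs, such as ABCC2 in obese secretome (28.7 and 27.9 against 14.1 and 15.7 CPM). Chance would set about 1 in 20 such groups apart. Groups of 3 in the mouse lines cannot be examined this way.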

How the results depend on the processing

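Against control, obese secretome gave 2 calls in E0771 with no filter (0 otherwise) and 2 in NMuMG with DESeq2 (Abcg2 and Abcc1, 1 otherwise). In SkBr3 it gave 1 with DESeq2 (ABCC2) and 1 with no filter, which was another gene (ABCC3), and 0 otherwise. Leaving out 1 library gave 0 to 1 in E0771 (1 without control replicate 3 or obese replicate 2), 0 to 3 in NMuMG (0 without control replicate 3, 3 without obese replicate 1, 2 without obese replicate 2) and 0 to 1 in SkBr3 (1 without obese replicate 2). On leaving out 1 library, counts for the difference between lines ranged from 2 to 4 for lean against control (5 when fitting only the groups compared, with Abcc1 added) and from 3 to 5 for lean against obese. Fitting only the groups compared also gave 4 for the latter (Abcc3 lost) and 6 in NMuMG lean against obese (7 in the report, Abcc1 lost). Values not called that changed sign on leaving out 1 library were, over all such omissions, -0.0229 to 0.18 for Abcc1 and -0.33 to 0.0784 for Abcc3 in E0771 obese against control, -0.0316 to 0.0149 for Abcb1a in NMuMG, and in the difference between lines for obese against control -0.14 to 0.0879 for Abcc10, -1.79 to 1.43 for Abcc2, -0.27 to 0.14 for Abcc3, -0.19 to 0.0944 for Abcc4 and -0.11 to 0.0338 for Abcc5. In the contrasts with lean secretome such values were -0.0533 to 0.197 for Abcc3 in E0771 lean against control, -0.0515 to 0.112 for Abcc10 in E0771 lean against obese, -0.0464 to 0.0308 for Abcb1b in NMuMG lean against control, and in the difference between lines -0.0442 to 0.666 for Abcb1a and -0.0047 to 0.0782 for Abcc4 (lean against control) and -0.0402 to 0.243 for Abcc4 (lean against obese). RLE size factors changed no call in obese secretome against control. The replicate block, too, changed no call there (1 of 9 in NMuMG with and without it). In the difference between lines for lean against obese, values over 17 alternatives ran from -0.51 to -0.32 for Abcc10 and from -0.69 to -0.28 for Abcc3. The contrasts with lean secretome were in view when the genes were chosen, so nothing is read from their counts of calls here. Residuals of same-numbered libraries of different media within a line correlated at -0.0452 to 0.0523 in SkBr3, -0.0942 to 0.11 in E0771 and -0.0285 to 0.025 in NMuMG. Libraries of different lines were not compared, so a secretome batch shared between the lines cannot be seen this way. The causes were not tested. Depth limits Abcc2 and Abcb1a in E0771, at 0 to 6 counts a library.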
